A study of Mus musculus with 28 samples.

Results

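The 71 genes described here encode the secreted and membrane-bound cues that steer growing axons and the receptors that read them, out of 55385 gene identifiers in the deposited expression table. They were chosen by symbol: all protein-coding genes whose names begin with Epha, Ephb, Efna, Efnb, Plxn, Robo, Unc5 or Sema, the numbered Slit and Ntn genes, and Dcc, Nrp1 and Nrp2. Of the 71, 35 encode ligands and 34 encode receptors. The other 2, Unc50 and Unc5cl, match the letters of the rule but are not netrin receptors, so counts over the family are also given without them. The measurements come from P19, an established mouse embryonal carcinoma line that becomes neural in retinoic acid, with RNA-seq libraries and peak lists for H3K9ac (acetylated lysine 9), H3K9cr (crotonylated lysine 9), H3K18la (lactylated lysine 18) and ATAC-seq, an assay of open chromatin.

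All groups came from this 1 line. Day 0 cells were undifferentiated and kept in serum-containing proliferation medium. Day 4 cells had received 1 µM retinoic acid in that medium for 4 days and are labelled neural stem and progenitor cells. Day 8 cells had the same 4 days and were then replated in a neuronal medium for 4 more days. Both day 2 groups were in 1 µM retinoic acid and received an addition on day 1, either 1 µL of DMSO, the solvent, or 1 µL of MS-275 at 10 mM, which inhibits class I histone deacetylases. The sources used here do not give the final concentration of MS-275, and the day 2 cells in DMSO carry the solvent while day 0, day 4 and day 8 cells do not. RNA-seq had 2 libraries in each of the 5 groups, histone marks had 2 peak lists each at day 4 and 1 each per day 2 condition, and ATAC-seq had 2 lists at day 4. The series calls its replicates biological, and the sources used here do not say how the cultures were separated, so p-values measure the spread between these libraries.

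Netrins, Slits, semaphorins and ephrins are the classical guidance cues. Netrins attract growth cones through Dcc and repel them when Unc5 receptors take part. Slits repel through Robo receptors and keep commissural axons from crossing the midline again, and Robo3 lets them cross in the first place. Class 3 semaphorins signal through a neuropilin that binds the ligand and a plexin that transmits the signal, while membrane-bound semaphorins bind plexins directly. Ephrins and Eph receptors sit on opposing cell surfaces and signal in both directions, and many of them also act in early embryos and in cell sorting long before axons form.

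Total estimated counts lay between 18115926 and 19586374 per RNA library. Levels are given as CPM, a count scaled to its library's total after that total was multiplied by edgeR's TMM normalization factor. A CPM also depends on transcript length, so levels are compared between groups for 1 gene and not between genes. Of the 71 genes, 69 passed the filter on low counts and were tested. Ntn5, which had at most 0.473 CPM in any library, and Plxnb3, which had at most 0.155 CPM, did not pass. The 12 pluripotency markers summed to 3044 and 3051 CPM in the day 0 libraries and to 8.87 and 10.3 CPM at day 4, with Zfp42, Dppa4, Dppa5a and Fgf4 at 0 there. At day 8 they were at 105 to 129 CPM, with Zfp42 at 0, and 9 of the 10 tested were higher than at day 4. The 14 neuron markers summed to 560 to 570 CPM at day 0, 3550 to 3705 CPM at day 4 and 5175 to 5632 CPM at day 8. The other lists moved too: the 18 fibroblast and mesenchyme markers ran from 514 to 517 CPM at day 0 (Lum at 0), 441 to 462 CPM with DMSO, 1108 to 1153 CPM with MS-275 and 1647 to 1799 CPM at day 4, with none of the 18 at 0 from day 2 on, and the 12 glia markers from 99.3 to 104 CPM at day 4 to 181 to 187 CPM at day 8. The 10 neural crest markers summed to 81.8 to 83.2 CPM at day 0 and 434 to 441 CPM with DMSO. They were at 465 to 477 CPM at day 4 and 173 to 177 CPM at day 8. The 14 neural progenitor markers summed to 653 to 657 CPM at day 0, with Pax3 and Neurog1 at 0. They reached 3946 to 4223 CPM at day 4 and stood at 2708 to 2720 CPM at day 8. The part of all these lists in the results below was not tested. In bulk samples, fewer cells of a type and less RNA per cell cannot be told apart. By span, 37 of the 71 genes overlap another RefSeq gene (Plxna4 overlaps Plxna4os1, Ntn3 overlaps Tbc1d24, Sema3b overlaps Lsmem2, Epha1 overlaps Zyx and Unc5a overlaps Hk3), and the sources used here do not say whether the counting used strand, so reads of such partners may be mixed.

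Most guidance genes rose as the cells left the pluripotent state. At day 4 against day 0, 50 of the 69 genes were higher and 13 lower in the quasi-likelihood test of edgeR, Benjamini-Hochberg adjusted over all 17789 genes, where 72.3% of all genes were called, 36.2% higher and 36.1% lower. The median log2 fold change was 1.44, against 0.01 over all genes tested. The first 2 days gave 41 genes higher and 18 lower with DMSO against day 0 (64.6% of all genes called, 32.4% higher and 32.2% lower), with a median of 0.58. From day 2 with DMSO to day 4, 44 were higher and 14 lower (61.2% of all genes called, 30.6% in each direction), with a median of 0.74. From day 4 to day 8, 39 were higher and 14 lower (41.5% of all genes called, 21.7% higher and 19.8% lower), with a median of 0.39. Neighbouring comparisons share libraries and are not independent. Counting only changes of at least 2-fold, day 4 against day 0 gave 40 higher and 7 lower (20.7% and 18.2% of all genes), day 2 with DMSO against day 0 gave 30 and 10 (13.4% and 15%), day 4 against day 2 gave 26 and 7 (14.9% and 9.91%) and day 8 against day 4 gave 19 and 5 (9.25% and 3.69%). With Dcc, Unc5c and the other genes that have no or few counts in 1 group placed at their bounds, these medians were the same. At most 3 of the 69 genes in a comparison were so placed, which left the medians little room to move. Without Unc50 and Unc5cl, the 67 tested ligands and receptors gave 50 higher and 12 lower for day 4 against day 0 (median 1.51), 41 and 17 for day 2 with DMSO against day 0 (median 0.67), 43 and 14 for day 4 against day 2, and 39 and 14 for day 8 against day 4. The counts by family below are small, and those for day 4 against day 0 stand beside the 36.2% higher and 36.1% lower over all genes.

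The day of the highest mean was day 8 for 33 of the 69 genes, day 4 for 17, day 2 with DMSO for 11 and day 0 for 8. Over all genes tested the shares were 25.9%, 18.4%, 22.5% and 33.1% in the same order. Genes that peaked at day 4 include Dcc, Robo1, Robo3, Unc5c, Nrp2, Slit2, Slit3 and Epha3, and those highest at day 8 include Ntn1, Robo2, Slit1, Nrp1, Plxna1, Plxna4 and Ephb2. At day 2 with DMSO the highest means belonged to Plxna2, Sema3a, Sema3d, Epha7 and Unc5b among others. Epha1, Epha2, Epha8, Sema3b and Sema3c were among the 8 with the highest mean at day 0.

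**Figure D1:**
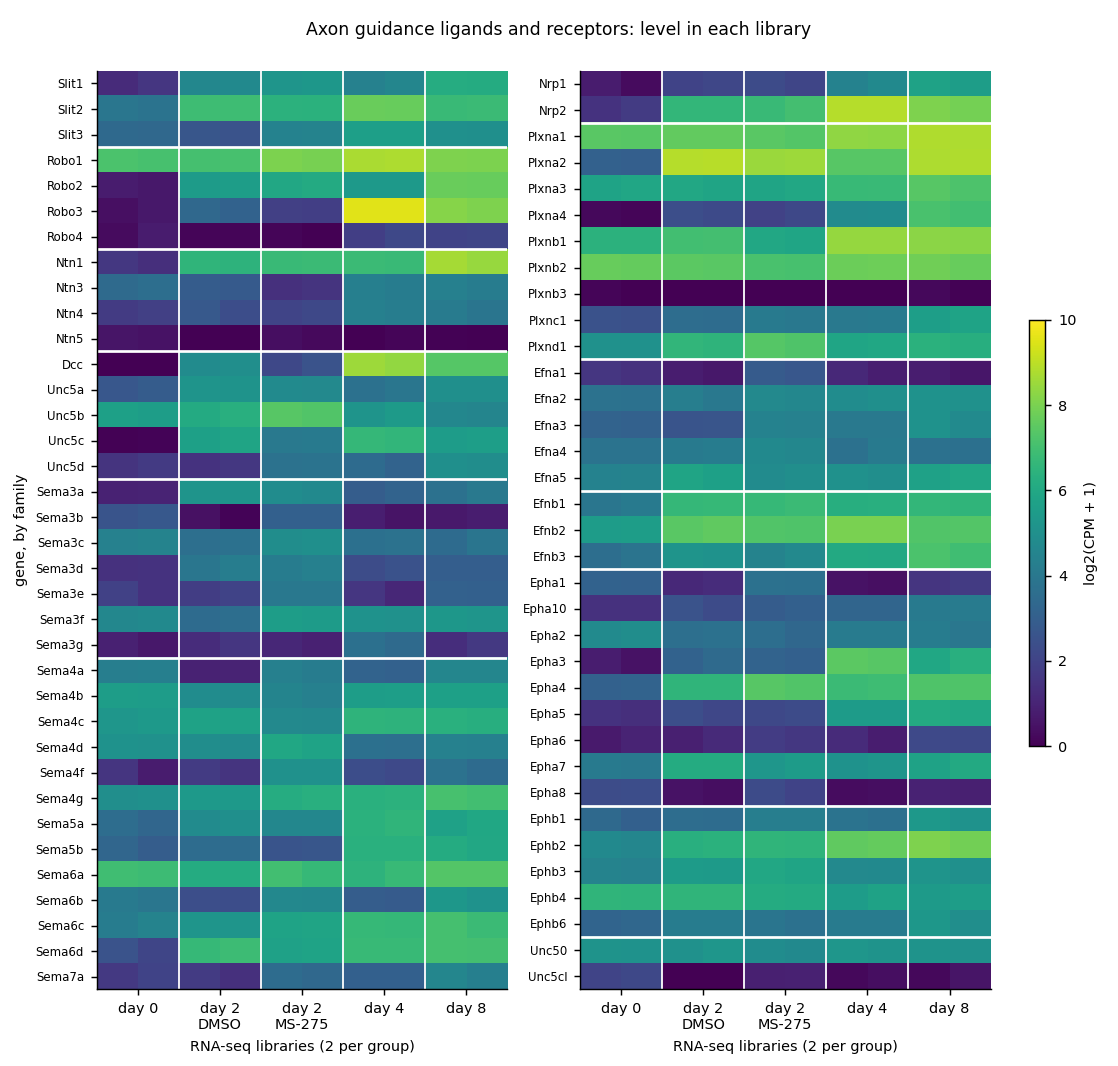
Level of all 71 genes in each of the 10 RNA-seq libraries, as log2(CPM + 1) by colour, with genes in rows grouped by family (white lines) and libraries in columns, 2 per group. Nrp2, Dcc, Robo3 and Unc5c pass from the dark end at day 0 to the bright end at day 4, while Plxnb3 and Ntn5 stay dark in every library.

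Start-site sequence is printed for 5 genes whose expression or peaks the results turn on: Robo3, Unc5c and Nrp2, which rose strongly over the 4 days, Robo2, whose outermost start gained peaks, and Sema4a, which fell in retinoic acid and rose with MS-275. Each stretch is the RefSeq window on GRCm38.p6 from 250 bases before to 50 bases after the start nearest the gene's annotated 5′ end, written 5′ to 3′ on the gene's strand, with CG dinucleotides in capitals. The positions are Robo3 on chr9:37433126-37433425, minus strand, Robo2 on chr16:75447244-75447543, minus strand, Unc5c on chr3:141465314-141465613, plus strand, Nrp2 on chr1:62703067-62703366, plus strand and Sema4a on chr3:88461133-88461432, minus strand. Each ends in the first bases of the annotated transcript and holds the promoter just upstream.
Robo3: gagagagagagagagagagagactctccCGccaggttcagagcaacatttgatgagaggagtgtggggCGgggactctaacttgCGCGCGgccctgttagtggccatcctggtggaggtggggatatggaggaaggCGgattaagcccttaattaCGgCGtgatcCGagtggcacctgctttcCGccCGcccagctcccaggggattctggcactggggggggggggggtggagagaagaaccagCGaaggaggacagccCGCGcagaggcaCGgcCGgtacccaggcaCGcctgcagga
Robo2: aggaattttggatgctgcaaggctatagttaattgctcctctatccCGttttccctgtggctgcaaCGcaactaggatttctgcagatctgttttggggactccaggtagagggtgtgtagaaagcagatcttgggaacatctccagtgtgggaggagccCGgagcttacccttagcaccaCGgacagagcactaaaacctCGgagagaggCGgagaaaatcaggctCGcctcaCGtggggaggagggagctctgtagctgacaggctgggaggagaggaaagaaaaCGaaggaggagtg
Unc5c: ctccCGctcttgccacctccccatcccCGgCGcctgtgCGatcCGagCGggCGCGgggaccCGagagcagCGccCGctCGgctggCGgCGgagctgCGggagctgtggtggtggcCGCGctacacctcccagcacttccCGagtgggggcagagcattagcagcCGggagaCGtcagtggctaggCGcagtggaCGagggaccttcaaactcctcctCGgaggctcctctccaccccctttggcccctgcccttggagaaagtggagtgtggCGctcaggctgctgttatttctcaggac
Nrp2: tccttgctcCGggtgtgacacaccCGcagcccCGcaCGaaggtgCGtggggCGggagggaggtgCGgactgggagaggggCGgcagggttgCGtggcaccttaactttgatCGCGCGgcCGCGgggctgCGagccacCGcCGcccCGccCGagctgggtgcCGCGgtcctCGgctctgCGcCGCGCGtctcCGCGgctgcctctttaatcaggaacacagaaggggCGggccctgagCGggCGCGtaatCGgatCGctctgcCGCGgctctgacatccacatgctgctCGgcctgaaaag
Sema4a: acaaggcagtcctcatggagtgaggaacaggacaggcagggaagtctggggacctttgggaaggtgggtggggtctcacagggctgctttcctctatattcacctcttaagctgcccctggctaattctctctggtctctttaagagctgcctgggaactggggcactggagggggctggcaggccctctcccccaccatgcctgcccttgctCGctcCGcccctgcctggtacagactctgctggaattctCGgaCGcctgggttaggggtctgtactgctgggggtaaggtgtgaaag

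These windows differed widely in CG content. Nrp2 holds 37 CG dinucleotides in 300 bases, Unc5c 24, Robo3 17, Robo2 9 and Sema4a 4. Of the 71 genes, 61 had a window in the RefSeq table, and the window nearest the 5′ end held a median of 22 CG dinucleotides and 64.7% G or C, against 7 and 52.7% over all 32817 windows listed. Those 32817 take in every window of each gene and are not limited to tested genes. The medians are therefore not like for like. Searches on both strands for AGGTCA (the half-site of retinoic acid receptors), a direct repeat of AGGTCA with 5 bases between the copies (the DR5 element of the same receptors), the E-boxes CAGCTG and CAGATG, and TATAAA found none of them in the 5 windows printed. Over all 77 windows listed for the 61 genes, AGGTCA was in 11 (14.3%, against 16.3% of all windows), CAGCTG in 12 (15.6% against 16.3%), CAGATG in 5 (6.49% against 17.2%) and TATAAA in 2 (2.6% against 13.6%). The direct repeat was in none of them and in 3 of all windows. These shares are not adjusted for the G and C content given above, which differed. Whether a motif was rarer than in windows of like content was not tested.

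All 3 tested netrins were higher at day 4 than at day 0, among them Ntn1, a secreted cue of the floor plate. Ntn1 stood at 2.1 and 1.57 CPM at day 0, 93 and 87.2 CPM at day 2 with DMSO, 112 and 108 CPM at day 4 and 396 and 350 CPM at day 8. It was thus high from day 2 on, with no overlap between day 0 and any later group. The rise over the first 2 days was 48.7-fold (log2 5.61 ± 0.119 SE, edgeR adjusted p = 5.35e-16) and that from day 4 to day 8 was 3.38-fold (edgeR adjusted p = 6.93e-12). Ntn3 took another course: 10.1 and 11.3 CPM at day 0, 6.44 and 6.03 CPM at day 2 with DMSO and 19.1 and 17.3 CPM at day 4. Its day 2 level lay below both neighbours in both libraries (log2 -0.77 against day 0, edgeR adjusted p = 1.53e-04, and 1.54 for day 4 against day 2, edgeR adjusted p = 3.94e-08). Ntn4, also a secreted netrin, rose from 2.36 and 2.69 CPM at day 0 to 19.6 and 18.1 CPM at day 4 (log2 2.90 ± 0.191 SE, edgeR adjusted p = 5.29e-10).

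Among netrin receptors, Dcc, which mediates attraction, went from no read at all to a high level at day 4. Dcc was at 0 CPM in both day 0 libraries, 27.5 and 29.5 CPM at day 2 with DMSO, 365 and 333 CPM at day 4 and 163 and 165 CPM at day 8. Against a floor of 3 counts over the day 0 group, Dcc was at least 350-fold higher at day 2 and at least 4290-fold higher at day 4. It rose 12.3-fold from day 2 with DMSO to day 4 (log2 3.62 ± 0.0832 SE, edgeR adjusted p = 7.61e-15) and fell by 1.09 on the log2 scale from day 4 to day 8 (edgeR adjusted p = 6.90e-09). Unc5c, a repulsive netrin receptor, was at 0.0525 and 0.0561 CPM at day 0, 2 counts in all, then 50.9 and 56.1 CPM at day 2 with DMSO, 101 and 95.1 CPM at day 4 and 44.6 and 47.3 CPM at day 8. Its ratio of day 2 to day 0 was 984, with a 95% counting interval from 272 to 8129. Like Dcc, it was lower at day 8 than at day 4 in both libraries (log2 -1.09 ± 0.0735 SE, edgeR adjusted p = 4.40e-09).

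The other Unc5 receptors did not follow Unc5c. Unc5a was at 5.62 and 6.51 CPM at day 0, 34.7 and 34.2 CPM at day 2 with DMSO, 12.2 and 14.1 CPM at day 4 and 30.2 and 30.2 CPM at day 8. Its day 4 libraries lay between day 0 and day 2, a fall by 1.39 on the log2 scale from day 2 (edgeR adjusted p = 1.79e-09). Unc5b, which also acts in blood vessels, was at 50.2 and 46.7 CPM at day 0, 68 and 77.3 CPM at day 2 with DMSO, 35.5 and 42.9 CPM at day 4 and 23.8 and 22.2 CPM at day 8. The lower day 4 level against day 0 (log2 -0.31, edgeR adjusted p = 0.00781) lost its call when either day 0 replicate 1 (adjusted p = 0.0681) or day 4 replicate 1 (0.0697) was left out. Unc5d had 1.84 and 2.24 CPM at day 0, 1.78 and 2.05 CPM at day 2 with DMSO, 10.2 and 8 CPM at day 4 and 30.8 and 29.2 CPM at day 8, higher at each step from day 2 with DMSO onward (log2 2.25 to day 4, edgeR adjusted p = 1.49e-08, and 1.72 to day 8, 2.25e-08).

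All 3 Slits were higher at day 4 than at day 0, and each had its own timing. Slit2 was at 14 and 13.1 CPM at day 0, 117 and 117 CPM at day 2 with DMSO, 211 and 202 CPM at day 4 and 108 and 113 CPM at day 8. Slit2 therefore rose 15.2-fold over 4 days (log2 3.93 ± 0.0703 SE, edgeR adjusted p = 2.80e-17) and fell by 0.90 on the log2 scale by day 8 (edgeR adjusted p = 1.76e-09). Slit1 was at 1.37 and 1.96 CPM at day 0, 23.7 and 25.6 CPM at day 2 with DMSO, 20.1 and 23.3 CPM at day 4 and 71.6 and 70.5 CPM at day 8. Day 2 and day 4 were not called different (log2 -0.19, edgeR adjusted p = 0.121), so its 2 rises fell in the first 2 and the last 4 days. Slit3 first fell, from 9.62 and 9.37 CPM at day 0 to 5.39 and 4.89 CPM at day 2 with DMSO, and then reached 49.6 and 48.4 CPM at day 4. That rise was 9.5-fold (log2 3.25 ± 0.0977 SE, edgeR adjusted p = 4.30e-14), and at day 8 it was at 31.1 and 30.7 CPM.

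Robo receptors had different time courses. Robo3, the receptor that permits midline crossing, was at 0.315 and 0.561 CPM at day 0, 9.32 and 7.73 CPM at day 2 with DMSO, 751 and 754 CPM at day 4 and 286 and 269 CPM at day 8. It rose 19.4-fold over the first 2 days (log2 4.28 ± 0.211 SE, edgeR adjusted p = 2.18e-11) and more between day 2 and day 4 (87.9-fold, log2 6.46 ± 0.0813 SE, edgeR adjusted p = 7.24e-18), and day 4 was 1707-fold above day 0. Robo2, a repulsive Slit receptor, was at 0.683 and 0.561 CPM at day 0, 44.2 and 45.8 CPM at day 2 with DMSO, 41 and 41.9 CPM at day 4 and 209 and 206 CPM at day 8. Robo2 rose 71.4-fold over the first 2 days (edgeR adjusted p = 1.24e-15), did not differ between day 2 and day 4 by this test (log2 -0.12, edgeR adjusted p = 0.168), and rose 5.01-fold to day 8 (edgeR adjusted p = 4.34e-13).

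Robo1, the other main Slit receptor, was already at 141 and 134 CPM at day 0. It was at 133 and 137 CPM at day 2 with DMSO, 419 and 430 CPM at day 4 and 264 and 259 CPM at day 8. The day 0 and day 2 libraries overlapped, and day 4 was 3.15-fold above day 2 (log2 1.65 ± 0.0527 SE, edgeR adjusted p = 8.27e-14). From day 4 to day 8 Robo1 fell by 0.70 and Robo3 by 1.44 on the log2 scale (edgeR adjusted p = 1.09e-08 and 1.19e-11), while Robo2 rose. Robo4, known from blood vessels, had 0.21 and 0.673 CPM at day 0, 0.105 and 0.114 CPM at day 2 with DMSO and 2.62 and 3.55 CPM at day 4 (edgeR adjusted p = 4.42e-06). Its call against day 0 at day 2 was lost without any of 3 of the 4 libraries, with adjusted p from 0.125 to 0.47.

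**Figure D2:**
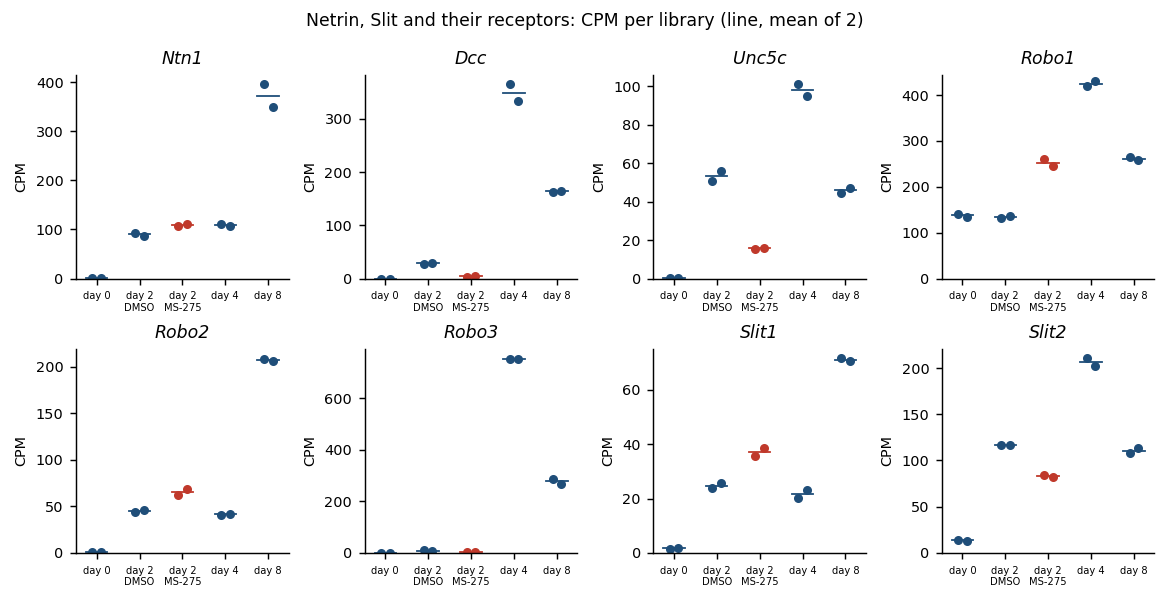
CPM of Ntn1, Dcc, Unc5c, Robo1, Robo2, Robo3, Slit1 and Slit2 in each library (points) with the mean of 2 (lines), on linear axes that start at 0; MS-275 libraries are red and all others blue. Robo3 is at 9.32 CPM or less up to day 2 and at 751 and 754 CPM at day 4, whereas Robo2 is highest at day 8 with 209 and 206 CPM.

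Class 3 semaphorins, the secreted ones, gave 4 of 7 higher and 2 lower at day 4 against day 0. Sema3a, a collapse factor for many growth cones, was at 0.946 and 1.01 CPM at day 0, 35.4 and 35.5 CPM at day 2 with DMSO, 6.77 and 8.11 CPM at day 4 and 12.1 and 15.4 CPM at day 8. It was a day 2 peak: a 36.1-fold rise (log2 5.17 ± 0.177 SE, edgeR adjusted p = 1.89e-13) followed by a fall by 2.25 on the log2 scale (edgeR adjusted p = 1.13e-10). Sema3d also peaked at day 2, with 1.68 and 1.74 CPM at day 0, 14 and 17.7 CPM at day 2 with DMSO and 4.04 and 4.72 CPM at day 4 (log2 3.21 and then -1.85, edgeR adjusted p = 1.87e-10 and 3.03e-08). Sema3f, a repellent read mainly through Nrp2, did the reverse: 23.7 and 25.9 CPM at day 0, 10.2 and 11.4 CPM at day 2 with DMSO and 32.8 and 31.9 CPM at day 4 (log2 -1.20 and then 1.58, edgeR adjusted p = 1.28e-08 and 2.81e-10).

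Sema3g peaked at day 4, with 11.8 and 9.89 CPM against 1.41 and 1.99 CPM at day 2 with DMSO and 1.45 and 2.12 CPM at day 8. Both neighbours lay apart from it (log2 2.67 up to day 4, edgeR adjusted p = 3.27e-07, and -2.60 to day 8, edgeR adjusted p = 1.04e-06). Sema3b was at 5.1 and 5.72 CPM at day 0, 0.366 and 0.0569 CPM at day 2 with DMSO and 0.787 and 0.444 CPM at day 4. Day 4 was lower than day 0 (log2 -3.11 ± 0.362 SE, edgeR adjusted p = 7.35e-07), and the size of the fall to day 2 depended on which DMSO library was kept. The fall of Sema3e from day 2 with DMSO to day 4 (log2 -0.81, edgeR adjusted p = 0.0203) was lost without DMSO replicate 2 (adjusted p = 0.107) or day 4 replicate 2 (0.214). Sema3e was at 2.57 and 3.01 CPM at day 2 with DMSO, 1.99 and 1.17 CPM at day 4 and 7.7 and 7.42 CPM at day 8, a rise by 2.25 on the log2 scale in the last step (edgeR adjusted p = 1.86e-06).

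Semaphorins of classes 4 to 7, which are membrane-bound or anchored, gave 8 of 13 higher and 4 lower at day 4 against day 0. The largest rise was that of Sema6d, with 4.89 and 3.25 CPM at day 0, 103 and 116 CPM at day 2 with DMSO, 105 and 107 CPM at day 4 and 130 and 128 CPM at day 8. It rose 26.7-fold over the first 2 days (log2 4.74 ± 0.118 SE, edgeR adjusted p = 3.36e-15), and day 2 and day 4 overlapped. Its higher level at day 8 than at day 4 (log2 0.28, edgeR adjusted p = 0.00939) was not called once day 4 replicate 1 (adjusted p = 0.0854) or replicate 2 (0.0537) was left out. Sema5b went the other way in time, with 8.83 and 6.73 CPM at day 0, 10.5 and 10.5 CPM at day 2 with DMSO and 80.6 and 81.3 CPM at day 4 (7.71-fold from day 2, edgeR adjusted p = 1.90e-13). Sema6a, a ligand and receptor for class A plexins, was at 121 and 116 CPM at day 0, 69.3 and 69.4 CPM at day 2 with DMSO, 86.7 and 105 CPM at day 4 and 161 and 159 CPM at day 8. It dipped on day 2 in both libraries (log2 -0.77, edgeR adjusted p = 9.20e-07).

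Sema4a, which also signals in the immune system and the retina, fell and came back. It was at 18.3 and 19 CPM at day 0, 0.942 and 1.02 CPM at day 2 with DMSO, 8.03 and 7.55 CPM at day 4 and 22.9 and 22.9 CPM at day 8. The day 2 libraries lay 18.9-fold under day 0 (log2 -4.24 ± 0.164 SE, edgeR adjusted p = 9.19e-13), and the later groups rose again by 2.98 and 1.56 (log2, edgeR adjusted p = 4.07e-10 and 1.09e-08). Sema6b had a like course, from 15.8 and 14 CPM at day 0 to 4.29 and 4.21 CPM at day 2 with DMSO, 6.72 and 6.39 CPM at day 4 and 38.2 and 33 CPM at day 8 (log2 2.44 in the last step, edgeR adjusted p = 7.22e-11). Sema4d fell at both steps to day 4, from 33.1 and 32.6 CPM at day 0 to 28.6 and 27.7 CPM at day 2 with DMSO and 11.9 and 11.7 CPM at day 4. The first of these falls (log2 -0.22, edgeR adjusted p = 0.0248) was lost without any 1 of its 4 libraries, with adjusted p from 0.0632 to 0.126, and the second was not (log2 -1.25, edgeR adjusted p = 3.04e-09).

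The neuropilins, which bind class 3 semaphorins and VEGF, both rose, at different times. Nrp2 was at 1.73 and 2.3 CPM at day 0, 98.1 and 97.9 CPM at day 2 with DMSO, 469 and 473 CPM at day 4 and 265 and 237 CPM at day 8. Day 4 was 234-fold above day 0 (log2 7.87 ± 0.117 SE, edgeR adjusted p = 3.96e-18), and day 8 fell by 0.91 on the log2 scale (edgeR adjusted p = 1.62e-08). Nrp1 was at 0.683 and 0.224 CPM at day 0, 3.04 and 3.35 CPM at day 2 with DMSO, 20.6 and 26.2 CPM at day 4 and 52.6 and 47 CPM at day 8. Nrp1 rose at every step (edgeR adjusted p = 3.02e-06, 3.57e-10 and 2.98e-06), without a fall at day 8, and its fold against day 0 depends on which day 0 library is kept.

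Plexins, the signalling receptors for semaphorins, were higher in 7 of 8 at day 4 against day 0 and lower in 0 of 8, by the same edgeR test. The exception, Plxnb2, had 205 and 196 CPM at day 0 and 214 and 221 CPM at day 4 (log2 0.11, edgeR adjusted p = 0.074). Plxna2, a receptor for class 6 semaphorins, was at 7.51 and 7.12 CPM at day 0, 476 and 481 CPM at day 2 with DMSO, 170 and 168 CPM at day 4 and 435 and 447 CPM at day 8. Plxna2 thus rose 65.3-fold in 2 days (log2 6.03 ± 0.0665 SE, edgeR adjusted p = 6.52e-19), was then 2.83-fold lower at day 4 (edgeR adjusted p = 7.52e-14) and rose 2.61-fold to day 8 (edgeR adjusted p = 2.17e-12). Plxna4, which pairs with neuropilins in sensory neurons, climbed throughout, with 0.158 and 0.112 CPM at day 0, 4.24 and 3.7 CPM at day 2 with DMSO, 27.4 and 28 CPM at day 4 and 138 and 126 CPM at day 8. Its last step was 4.75-fold (log2 2.25 ± 0.0817 SE, edgeR adjusted p = 3.85e-12). Plxnb1, a receptor for Sema4d, was at 85.5 and 86.1 CPM at day 0, 124 and 128 CPM at day 2 with DMSO and 339 and 342 CPM at day 4 (log2 1.43 from day 2, edgeR adjusted p = 5.39e-13).

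**Figure D3:**
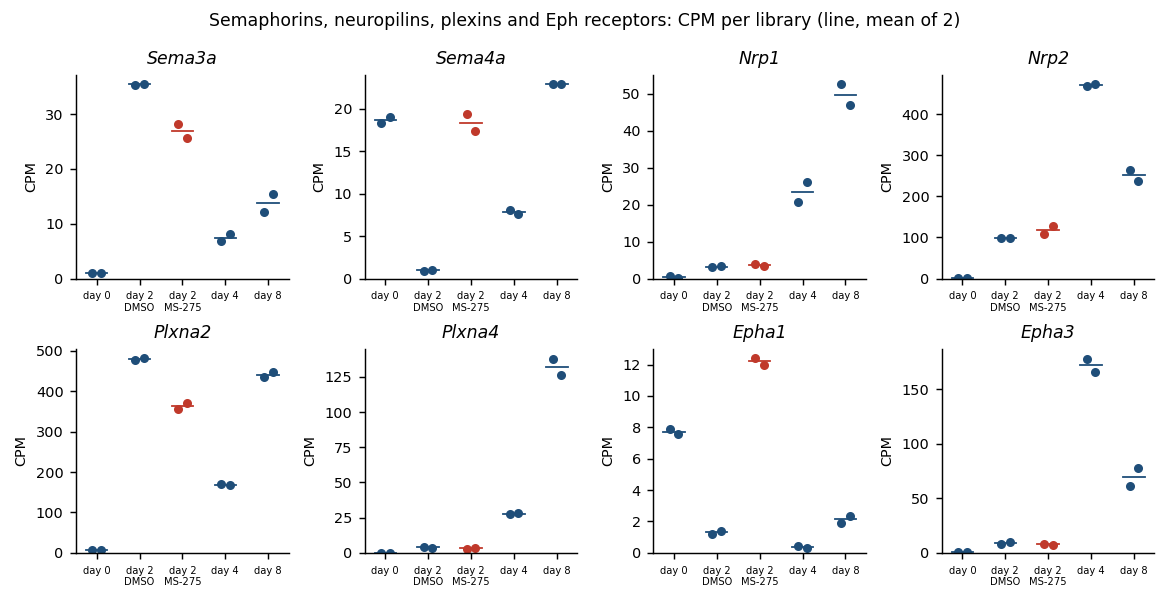
CPM of Sema3a, Sema4a, Nrp1, Nrp2, Plxna2, Plxna4, Epha1 and Epha3 in each library (points) with the mean of 2 (lines), on linear axes that start at 0; MS-275 libraries are red and all others blue. Sema4a is near 1 CPM at day 2 with DMSO and at 19.3 and 17.4 CPM with MS-275, and Plxna2 has a dip at day 4 between 2 high groups.

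B-class ephrins, the transmembrane ones, were all 3 higher at day 4 than at day 0. Efnb1 was at 14.3 and 16.5 CPM at day 0, 99.8 and 102 CPM at day 2 with DMSO, 75.2 and 77.5 CPM at day 4 and 96.5 and 91.1 CPM at day 8. It rose over the first 2 days (6.57-fold, edgeR adjusted p = 3.33e-14), followed by a fall by 0.41 on the log2 scale (edgeR adjusted p = 7.09e-05). Efnb2 was at 45.7 and 46.2 CPM at day 0, 171 and 187 CPM at day 2 with DMSO, 256 and 254 CPM at day 4 and 155 and 159 CPM at day 8, a maximum at day 4 (log2 2.47 ± 0.0593 SE against day 0, edgeR adjusted p = 9.25e-16). Of the GPI-anchored A-class ephrins, Efna5 was at 20.5 and 21.3 CPM at day 0, 56.3 and 50.8 CPM at day 2 with DMSO, 32.1 and 29.9 CPM at day 4 and 51.8 and 58.7 CPM at day 8. Its day 4 libraries lay below both neighbouring groups (log2 -0.79 and 0.83 for the steps in and out, edgeR adjusted p = 6.03e-07 and 7.97e-07). Efna1 was low throughout without MS-275, with 2 and 1.68 CPM at day 0, 0.733 and 0.569 CPM at day 2 with DMSO and 1.21 and 0.778 CPM at day 4. Its call at day 4 against day 0 (log2 -0.88, edgeR adjusted p = 0.0309) did not survive leaving out day 0 replicate 1 (adjusted p = 0.128) or day 4 replicate 2 (0.17).

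Of the 9 EphA receptors, 5 were higher and 3 lower at day 4 against day 0. Epha3 was at 0.736 and 0.393 CPM at day 0, 7.91 and 9.89 CPM at day 2 with DMSO, 178 and 166 CPM at day 4 and 61 and 77.4 CPM at day 8. The step from day 2 to day 4 was 19.4-fold (log2 4.28 ± 0.126 SE, edgeR adjusted p = 3.32e-14), and day 8 was lower by 1.32 (log2, edgeR adjusted p = 1.91e-08). Epha5, a receptor for A-class ephrins in topographic maps, was at 1.73 and 1.57 CPM at day 0, 4.29 and 3.35 CPM at day 2 with DMSO, 44.1 and 43.4 CPM at day 4 and 67.5 and 62.5 CPM at day 8. It rose 11.4-fold in the same step and did not fall afterwards (log2 0.57 to day 8, edgeR adjusted p = 3.12e-05). Epha4, which binds ephrins of both classes, was early, at 7.72 and 8.02 CPM at day 0 and 91.5 and 93.1 CPM at day 2 with DMSO (11.7-fold, edgeR adjusted p = 7.40e-16), with 112 and 118 CPM at day 4 and 149 and 149 CPM at day 8. Epha7 reached 69.7 and 70.6 CPM at day 2 with DMSO from 15.8 and 15 CPM at day 0, and had 32.8 and 36.4 CPM at day 4 (log2 2.19 and then -1.02, edgeR adjusted p = 2.59e-11 and 1.38e-07).

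The 3 EphA receptors that were lower at day 4 had their highest levels at day 0. Epha1 was at 7.88 and 7.57 CPM at day 0, 1.2 and 1.42 CPM at day 2 with DMSO, 0.42 and 0.333 CPM at day 4 and 1.91 and 2.38 CPM at day 8. Day 4 was 20.1-fold under day 0 (log2 -4.33 ± 0.277 SE, edgeR adjusted p = 3.40e-10). Epha8 had 3.99 and 4.21 CPM at day 0, 0.419 and 0.284 CPM at day 2 with DMSO and 0.262 and 0.278 CPM at day 4 (log2 -3.89 over 4 days, edgeR adjusted p = 1.40e-07). Epha2, a receptor also found in epithelia and early embryos, was at 26.3 and 29.1 CPM at day 0, 11.7 and 12.2 CPM at day 2 with DMSO and 17 and 17 CPM at day 4 (log2 -0.70, edgeR adjusted p = 3.64e-05). Epha6 was low throughout, with 1.36 and 0.722 CPM at day 4 and 3.62 and 3.44 CPM at day 8 (log2 1.75, edgeR adjusted p = 0.00115). For Epha1, Epha2 and Epha8 both day 0 libraries lay above all DMSO, day 4 and day 8 libraries.

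Of the 5 EphB receptors, 4 were higher and 1 lower at day 4 against day 0. Ephb2, which binds B-class ephrins and clusters with synaptic receptors, was at 25.6 and 22.9 CPM at day 0, 78.5 and 82.3 CPM at day 2 with DMSO, 185 and 197 CPM at day 4 and 270 and 231 CPM at day 8. It rose at each step without overlap (log2 1.73, 1.25 and 0.39, edgeR adjusted p = 2.32e-11, 2.70e-10 and 2.69e-04). Ephb4, the vascular partner of Efnb2, was at 91.2 and 89.3 CPM at day 0, 93.4 and 91.7 CPM at day 2 with DMSO and 45.5 and 52.9 CPM at day 4, a fall by 0.91 on the log2 scale in the second step (edgeR adjusted p = 1.69e-08). The calls of Ephb1 (log2 0.54) and Ephb3 (log2 0.31) at day 4 against day 0 were each lost without a library, Ephb1 without day 0 replicate 2 (adjusted p = 0.0555) and Ephb3 without day 0 replicate 2 (0.0598) or day 4 replicate 2 (0.0956).

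Unc50 and Unc5cl, which the rule takes in though they are not netrin receptors, were followed separately. Unc50, a Golgi protein, had 34.2 and 33.1 CPM at day 0 and 37.4 and 33.8 CPM at day 4, and no step of the time course was called for it (edgeR adjusted p from 0.425 to 0.729). Unc5cl was at 3.1 and 3.53 CPM at day 0, 0 in both DMSO libraries, and 0.157 and 0.278 CPM at day 4. Against the floor of 3 counts over the DMSO group it was at least 40.6-fold lower there than at day 0.

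MS-275 changed guidance genes in both directions. Against DMSO at day 2, 34 of the 69 genes were higher and 24 lower in the same edgeR test, where 63.3% of all genes were called, 31.9% higher and 31.4% lower. The median was 0.21, against 0.01 over all genes, and changes of 2-fold or more numbered 18 upward and 8 downward (19% and 6.04% of all genes). Without Unc50 and Unc5cl, 33 of 67 were higher and 23 lower. Class 3 and class 4 to 7 semaphorins gave 12 of 20 higher and 6 lower, while the 3 ephrin-Bs gave 0 higher and 2 lower and the 8 plexins 2 higher and 4 lower. No difference between families was tested.

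The 4 largest called falls with MS-275 were those of Dcc, Ntn3, Unc5c and Robo3. Dcc had 3.47 and 4.88 CPM with MS-275 and 27.5 and 29.5 CPM with DMSO, 6.82-fold lower with no overlap (log2 -2.77 ± 0.121 SE, edgeR adjusted p = 3.40e-11). Unc5c had 15.5 and 15.9 CPM against 50.9 and 56.1 CPM, 3.41-fold lower (log2 -1.77 ± 0.0834 SE, edgeR adjusted p = 2.93e-11). Robo3 had 2.67 and 2.59 CPM against 9.32 and 7.73 CPM, 3.24-fold lower (log2 -1.70 ± 0.139 SE, edgeR adjusted p = 1.94e-08). Other genes of the guidance families moved the other way. Slit3 had 20.9 and 21.3 CPM against 5.39 and 4.89 CPM, 4.09-fold higher (edgeR adjusted p = 7.17e-11), and Epha4 had 166 and 156 CPM against 91.5 and 93.1 CPM, 1.75-fold higher (edgeR adjusted p = 4.11e-09). Robo2 was 1.46-fold higher, at 62.1 and 69.1 CPM (edgeR adjusted p = 3.63e-06), and Robo1 1.87-fold higher, at 261 and 245 CPM (edgeR adjusted p = 3.25e-10). Unc5b rose 2.22-fold, to 168 and 155 CPM, and Unc5d 6.68-fold, to 12.5 and 13 CPM (edgeR adjusted p = 6.09e-09 and 1.12e-09).

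The netrin Ntn3 was at 1.58 and 1.84 CPM against 6.44 and 6.03 CPM (log2 -1.86, edgeR adjusted p = 1.88e-07). Sema4c had 24.9 and 24.3 CPM against 53.7 and 51.6 CPM, and Plxnb1 had 62.4 and 58.4 CPM against 124 and 128 CPM (log2 -1.10 and -1.06, edgeR adjusted p = 2.45e-09 and 1.02e-10). Sema6d and Sema5b fell by 1.05 and 1.02 on the log2 scale (edgeR adjusted p = 1.37e-08 and 4.98e-06). Plxna2 was lower by 0.39, at 357 and 371 CPM against 476 and 481 CPM, Slit2 lower by 0.49, at 84.3 and 81.8 CPM, and Efna5 lower by 0.90, at 27.6 and 29.7 CPM (log2, edgeR adjusted p = 1.35e-06, 1.55e-06 and 1.41e-07). The call of Sema3a (28.2 and 25.7 CPM, log2 -0.40, edgeR adjusted p = 0.00422) was lost without MS-275 replicate 2 (adjusted p = 0.05).

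Among the largest rises with MS-275 were those of semaphorins, A-class Eph receptors, Efna1 and Unc5d (given above), beside Unc5cl. Sema4a had 19.3 and 17.4 CPM with MS-275 and 0.942 and 1.02 CPM with DMSO, 18.6-fold higher (log2 4.22 ± 0.163 SE, edgeR adjusted p = 2.93e-12), beside 18.3 and 19 CPM at day 0. Epha1 had 12.4 and 12 CPM against 1.2 and 1.42 CPM, 9.28-fold higher (log2 3.21 ± 0.217 SE, edgeR adjusted p = 2.02e-09), beside 7.88 and 7.57 CPM at day 0. Sema3b had 7.38 and 7.42 CPM against 0.366 and 0.0569 CPM (edgeR adjusted p = 2.64e-08), and its fold depends on which DMSO library is kept. In all 3 the MS-275 libraries lay near or above day 0 and far above DMSO. Epha8 (3.91 and 2.99 CPM against 0.419 and 0.284 CPM, 9.59-fold), Efna1 (6.39 and 5.57 CPM against 0.733 and 0.569 CPM, 9.08-fold) and Sema6b (24.5 and 23.5 CPM against 4.29 and 4.21 CPM, 5.64-fold) also rose (edgeR adjusted p = 1.35e-06, 4.31e-07 and 6.50e-11). Sema4f was different, since it stood at 32.1 and 32.3 CPM with MS-275 and between 0.673 and 12.7 CPM in every other library (15.5-fold against DMSO, edgeR adjusted p = 2.17e-10). Unc5cl had 0.842 and 0.896 CPM with MS-275 and 0 with DMSO, at least 10.6-fold higher.

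Several genes with strong time courses moved little with MS-275. Ntn1 had 108 and 112 CPM against 93 and 87.2 CPM (log2 0.29, edgeR adjusted p = 0.00147). Nrp2 had 109 and 127 CPM against 98.1 and 97.9 CPM (log2 0.27, edgeR adjusted p = 0.00409), a call that was lost without MS-275 replicate 2 (adjusted p = 0.106). Epha3, Epha5, Plxna4 and Nrp1 were not called (edgeR adjusted p = 0.318, 0.719, 0.117 and 0.545), with differences of -0.19 ± 0.161, -0.07 ± 0.161, -0.30 ± 0.162 and 0.16 ± 0.224 (log2 ± SE). All 4 were low at day 2 in both groups, so small differences could not be seen at this depth.

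The MS-275 comparison shares no library with the comparison of day 4 and day 0, so their calls can be set side by side. Of the 50 genes higher at day 4 than at day 0, 20 were higher with MS-275, 20 lower and 10 not called, and over all genes higher at day 4 the shares were 28%, 37.5% and 34.5%. Of the 13 genes lower at day 4, 11 were higher with MS-275 (84.6%, against 38.5% over all genes lower at day 4), 1 was lower and 1 not called. Without Unc5cl it was 10 of 12 (83.3%). With MS-275 the 12 endothelial markers summed to 63 and 65.2 CPM (Cldn5 at 0) against 19.2 and 19.4 CPM with DMSO, the pluripotency markers to 241 and 247 CPM against 180 and 184 CPM, and the neural progenitor markers to 1196 and 1252 CPM against 1462 and 1475 CPM. The neuron markers summed to 773 to 790 CPM against 547 to 592 CPM (7 of 14 called higher and 4 lower), the glia markers to 179 to 185 CPM against 115 CPM in both DMSO libraries, and the 12 primitive streak and endoderm markers to 26.2 to 27.5 CPM (Ttr at 0) against 8.43 to 10 CPM (Afp, Ttr and Cer1 at 0). The part of these markers in the differences was not tested.

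**Figure D4:**
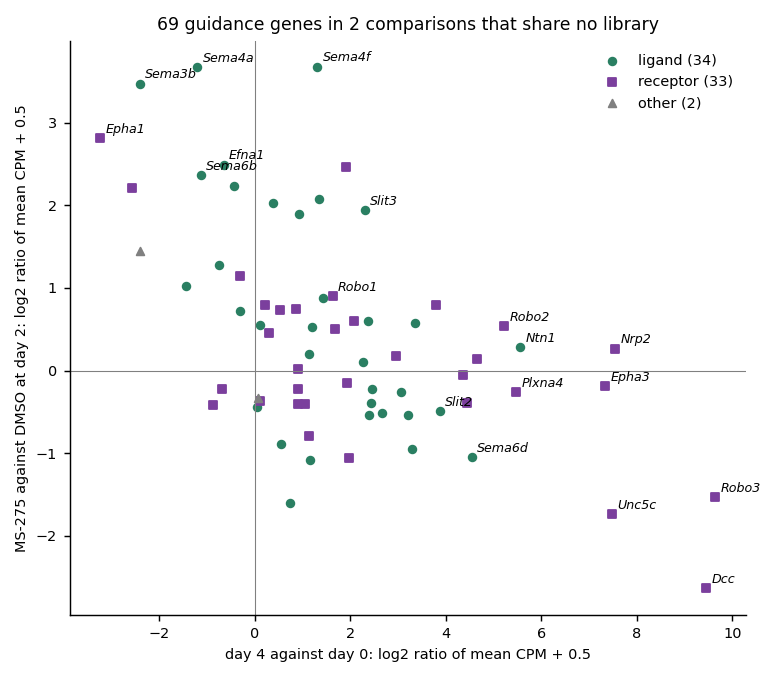
Log2 ratio of mean CPM + 0.5 for the 69 tested genes, day 4 against day 0 on the horizontal axis and MS-275 against DMSO at day 2 on the vertical axis, with ligands as circles, receptors as squares and Unc50 and Unc5cl as triangles. Dcc, Robo3 and Unc5c lie at the lower right (up over time, lower with MS-275), and Sema4a, Sema3b and Epha1 at the upper left; the offset of 0.5 CPM shrinks the ratios of low genes.

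As a description, the 3 genes outside the family whose log2 CPM tracked Dcc most closely over the 10 libraries were Tox3 (Pearson r = 0.9995), Nhlh2 (r = 0.9995) and Cux1 (r = 0.9985), by a search over all tested protein-coding genes, so high values are in part the result of the search and of 5 groups of 2. Nhlh2, a transcription factor of young neurons, was at 0 in both day 0 libraries, 22.1 and 20.4 CPM at day 2 with DMSO, 3.37 and 3.48 CPM with MS-275, 261 and 228 CPM at day 4 and 120 and 125 CPM at day 8. Tox3, a chromatin-binding protein, was at 5.99 and 6 CPM at day 0, 62.9 and 61.6 CPM at day 2 with DMSO, 20 and 23.6 CPM with MS-275, 237 and 231 CPM at day 4 and 145 and 143 CPM at day 8. Each had the order day 4, day 8, DMSO, MS-275 and day 0 that Dcc had.

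Beyond ligands and receptors, a list of 90 other guidance genes (adhesion partners, adaptors and cytoskeletal effectors), of which 89 were tested, also changed in both directions. At day 4 against day 0, 69 were higher and 15 lower (77.5% and 16.9%, beside 36.2% and 36.1% of all genes, median 1.13). With MS-275 39 were higher and 33 lower (43.8% and 37.1%, beside 31.9% and 31.4% of all genes, median 0.06). Draxin, a secreted netrin antagonist, was at 2.73 and 2.69 CPM at day 0, 150 and 154 CPM at day 2 with DMSO and 231 and 241 CPM at day 4 (log2 6.44 over 4 days, edgeR adjusted p = 1.33e-18). Chl1, an adhesion molecule that works with neuropilins, was at 0 in both day 0 libraries and at 51.9 and 49.5 CPM at day 4. Trim9, a ubiquitin ligase that binds Dcc, had 51 and 55.6 CPM at day 2 with DMSO and 7.28 and 5.77 CPM with MS-275, an 8.16-fold difference in the direction of Dcc itself (edgeR adjusted p = 3.68e-12). Lrrc4, a netrin-G receptor, had 58.1 and 49.1 CPM with DMSO and 0.396 and 0.747 CPM with MS-275 (edgeR adjusted p = 6.23e-14), and its partner Ntng2 had 29.9 and 32.7 CPM against 1.19 and 1.39 CPM (edgeR adjusted p = 2.26e-11). Ablim3, an actin-binding protein, went the other way, with 5.94 and 6.07 CPM with MS-275 and 0.157 and 0 CPM with DMSO (edgeR adjusted p = 2.64e-09), beside 8.09 and 8.69 CPM at day 0. Cxcl12, a chemokine that guides migrating neurons, fell from 48 and 47.5 CPM at day 2 with DMSO to 7.51 and 9 CPM at day 4 (edgeR adjusted p = 8.13e-12). Dscaml1, an adhesion molecule for self-avoidance, rose from 1.84 and 1.28 CPM at day 4 to 29 and 24.5 CPM at day 8 (edgeR adjusted p = 1.80e-08).

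Peak lists placed the histone marks at the starts of most of these genes, as they did for most tested protein-coding genes. H3K18la with MS-275 was the exception. For 61 of the 71 genes the strand was known, and a peak counted when it overlapped the 1 kb on either side of the outermost annotated 5′ end in every list of a group. At day 4, 51 of 61 genes had H3K9ac (83.6%, against 85% of all tested protein-coding genes). H3K9cr was at 51 (83.6% against 83.6%), H3K18la at 42 (68.9% against 70%) and ATAC at 37 (60.7% against 68.5%). With DMSO at day 2, 50 had H3K9ac (82% against 83.1%), 49 H3K9cr (80.3% against 83%) and 41 H3K18la (67.2% against 71.5%). With MS-275, 56 had H3K9ac (91.8% against 89.1%), 57 H3K9cr (93.4% against 88.3%) and 24 H3K18la (39.3% against 27.7%). Counting a peak at either end takes in the 10 genes without a strand. Day 4 then gave 64 of 71 genes with H3K9ac (90.1%, against 86.2% of all tested genes) and 62 with H3K9cr (87.3% against 84.6%). H3K18la was at 54 (76.1% against 71.9%) and ATAC at 43 (60.6% against 68.6%). In the same way DMSO gave 58 with H3K9ac (81.7% against 84.1%), 60 with H3K9cr (84.5% against 84%) and 50 with H3K18la (70.4% against 73.1%). MS-275 gave 67 (94.4% against 90.7%), 68 (95.8% against 89.9%) and 31 (43.7% against 30.8%) in the same order. By 5′ ends, the count of 24 genes with H3K18la under MS-275 comes from a list with no replicate and depends on the threshold. With a −log10 q of at least 5 it was 14 of 61 (23%, against 14.6% of all tested genes), and that with DMSO was 36 (59% against 66.6%).

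The outermost annotated end is not always the start in use. An alternative, added after seeing the data, counted any start listed in the RefSeq promoter table in its place. The day 4 numbers were then 55 for H3K9ac (90.2%, against 89% of all tested genes) and 55 for H3K9cr (90.2% against 88%). H3K18la was at 48 (78.7% against 74.5%) and ATAC at 41 (67.2% against 74.2%). Slit2 shows the difference. Its listed start lies 1864 bases inside the annotated end, and its day 4 H3K9ac peaks began 936 and 1041 bases inside that end, with fold enrichments of 61.8 and 58.8 (the authors' value per peak, used to describe a list only). Under this reading 6 of 61 genes had no assay with peaks in both day 4 lists: Epha8, Plxnb3, Robo4, Sema3a, Sema4d and Unc5cl. The share over all tested genes was 10.4%. At its outermost end, 36995 bases from the nearest listed start, Sema4d did have H3K9ac, H3K9cr and H3K18la in both day 4 lists. Sema3a had 6.77 and 8.11 CPM and Sema4d 11.9 and 11.7 CPM at day 4, and the other 4 were below 4 CPM.

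The 4 assays together marked 35 of 61 genes at day 4 under the listed starts (57.4%, against 64.9% of all tested genes). By the outermost ends they marked 29 (47.5% against 59.5%). Among the 35 under the listed starts were Nrp1, Nrp2, Robo1, Robo2, Slit2, Slit3, Unc5c, Plxna2, Epha3 and Epha5. Another 13 (21.3%, against 8.78% of all tested genes) had all 3 histone marks but not an ATAC peak in both lists, and by the outermost ends the numbers were also 13, against 9.46%. Robo3, at 751 and 754 CPM, was among these 13, with Efna1, Efna2, Efna3, Epha4, Ntn3, Ntn5, Plxnc1, Sema3g, Sema4a, Sema4g, Sema6b and Unc5a. ATAC lists held 28422 and 24446 peaks, fewer than the H3K9ac lists with 38703 and 37578, and their depth is unknown. Ntn5, with no more than 0.111 CPM at day 4, also carried the 3 histone marks. By span it overlaps Sec1, and to which gene these peaks belong was not tested.

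Robo3 had H3K9ac at its start in every list, with fold enrichments of 6.33 with DMSO, 12.6 with MS-275 and 12.8 and 25.3 at day 4. H3K18la was listed there at day 4 (4.68 and 3.1) and with MS-275 (4.39), but not with DMSO. The sequence of this start is printed above. Nrp2 and Unc5c had H3K9ac and H3K9cr in all lists. Nrp2 kept H3K18la in all of them, while Unc5c had it with DMSO and at day 4 but not with MS-275. Dcc, for which the table gives no strand, had H3K9ac at 1 of its ends in all 4 lists. Its fold enrichments were 15.2 with DMSO, 6.53 with MS-275, and 37.6 and 37.4 at day 4. ATAC peaks lay at that end in both day 4 lists, and H3K18la in 1 of 2 day 4 lists and neither day 2 list. The median fold enrichment of the whole H3K9ac list was 13.8 with DMSO, 4.73 with MS-275, and 9.74 and 9.63 at day 4. Fold enrichments of 1 gene are therefore not compared between lists.

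Robo2 has 3 listed starts, and the outermost one, printed above, was unmarked with DMSO. It carried H3K9ac in both day 4 lists (5.42 and 5.04), H3K9cr in both (7.76 and 6.58) and ATAC in both (5.77 and 7.34). With MS-275 it also carried H3K9ac (4.77) and H3K9cr (6.35). Robo2 RNA was not called different between day 2 with DMSO and day 4, as given above, and both inner starts had H3K9ac within 1 kb with DMSO. Sema3g, whose RNA peaked at day 4, had neither H3K9ac nor H3K9cr with DMSO and both at day 4 and with MS-275 by either reading, while its RNA with MS-275 (1.14 and 0.896 CPM) was not called different from DMSO (log2 -0.73, edgeR adjusted p = 0.0734).

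With MS-275 the H3K9ac and H3K9cr lists held more peaks, 84418 and 70748 against 26555 and 24874 with DMSO. They covered 122 and 107 Mb against 34.2 and 32.5 Mb, so gained peaks were common everywhere. Their median peak was shorter, at 827 and 910 bases against 1069 and 1110. Median fold enrichment was lower too, at 4.73 and 5.02 against 13.8 and 16.7. By the outermost ends, 6 of 61 genes had H3K9ac with MS-275 only (Robo2, Sema3a, Sema3g, Sema4a, Slit2 and Unc5cl), against 6.34% of all tested genes, and 0 had it with DMSO only (0.314%). By the listed starts there were 4: Sema3a, Sema3g, Sema4d and Unc5cl (4.97%). For H3K9cr the outermost ends gave 8 such genes (5.9%), the same 6 with Epha8 and Sema4c, and the listed starts gave 5, those 4 and Epha8 (4.44%). At its outermost end, Sema4d had both marks with DMSO as well as with MS-275. Sema4a separates the readings. Its outermost start, the CG-poor window printed above, had H3K9ac at positions -982 to 264 relative to it with MS-275 only. Its inner starts, 2081 and 2298 bases downstream, had an H3K9ac peak within 1 kb in all 4 lists, with fold enrichments of 6.78 with DMSO, 15.6 with MS-275 and 26.2 and 18 at day 4. ATAC had a peak there in 1 of the 2 day 4 lists, as it did at Sema3g.

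H3K18la went the other way with MS-275. By the outermost ends 21 of 61 genes had it with DMSO and not with MS-275 (34.4%, against 46.2% of all tested genes), and 4 (Robo3, Sema6b, Sema7a and Slit2) had it with MS-275 only (2.45%). By the listed starts 21 were again DMSO only (48% of all tested genes), among them Unc5c, Unc5b, Robo2, Epha1, Efnb1, Sema3c and Sema6d. The list with MS-275 held 31577 peaks and that with DMSO 36382, with 16.3 and 26.8 Mb covered. From DMSO to day 4, 6 genes gained H3K18la by the listed starts (Efna2, Epha3, Epha6, Robo3, Sema7a and Slit3, against 5.63%) and 6 lost it (Epha1, Epha10, Ephb1, Sema3d, Sema3e and Sema5a, against 7.23%). Of the gained, Efna2, Epha3, Robo3, Sema7a and Slit3 were also higher in RNA at day 4 than at day 2 with DMSO, and Epha6 was not called. Of the lost, Epha1, Sema3d and Sema3e were lower (Sema3e with the limit given above), Epha10 and Sema5a higher, and Ephb1 not called. In that RNA comparison 63.8% of the 69 genes were higher and 20.3% lower, beside 30.6% in each direction over all genes. A link between the mark and RNA was not tested.

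**Figure D5:**
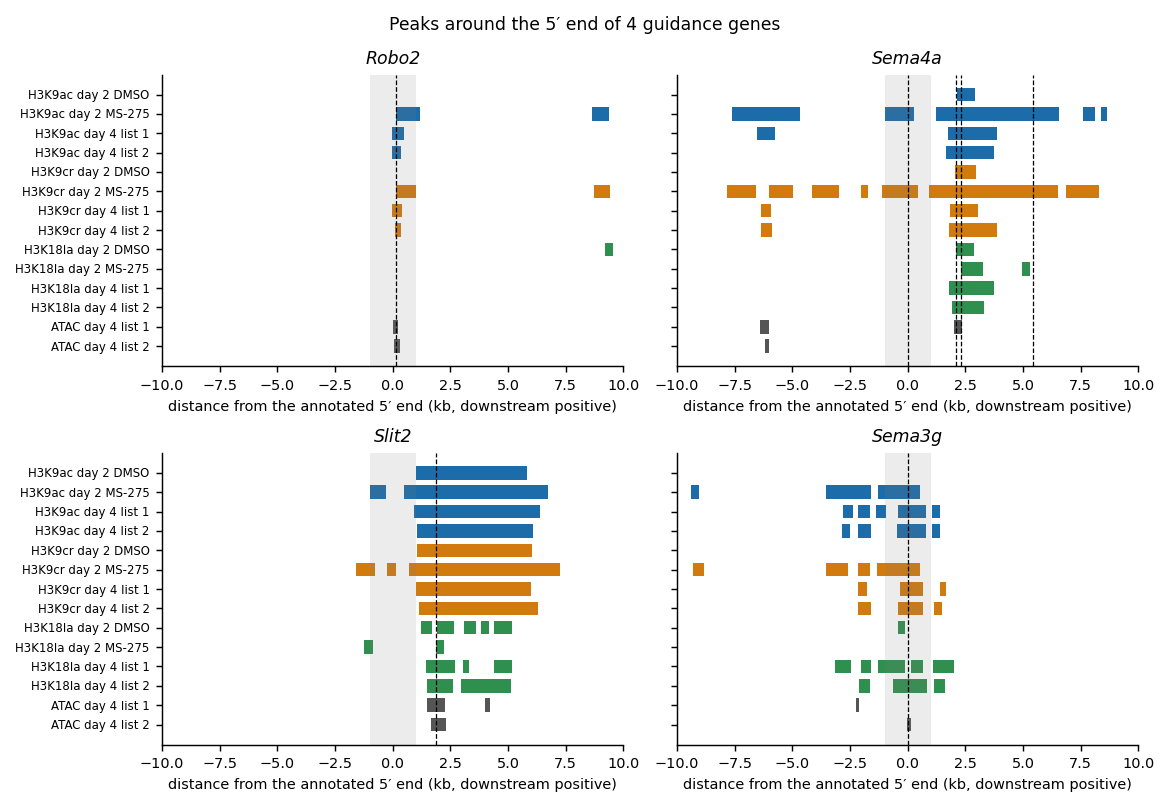
Peaks of each list (bars) within 10 kb of the annotated 5′ end of Robo2, Sema4a, Slit2 and Sema3g, with distance in kb on the horizontal axis (downstream positive), the 1 kb window in grey and RefSeq-listed starts as dashed lines. Slit2 peaks sit mostly downstream of the grey window around its listed start, and Sema4a has broad MS-275 peaks across the region beside a narrow DMSO peak at its inner starts.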

How the data were processed

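RNA-seq values are estimated counts per gene that the authors deposited, with Salmon 1.1.0 and DESeq2 1.26.0 named in the submitters' processing notes. Depth was 18115926 to 19586374 counts per library, and 19.2% to 25.8% of values were not whole. Peak lists carry deposited signal (pileup), ratio (fold enrichment) and −log10 p and q columns per the file headers, with MACS2 2.2.7.1 and Bowtie2 2.4.1 also named in those notes. Their depth is unknown, and inputs were not used here.

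Counts were rounded and fitted over all 10 libraries with edgeR 4.0.16 in R 4.3.3 (TMM factors, quasi-likelihood test, Benjamini-Hochberg adjustment over all genes tested, threshold 0.05), without the replicate number. DESeq2 1.42.0, other size factors, no filter, leaving out each library, the replicate block, a fold minimum, a stricter peak threshold and other windows were alternatives. The fit was tested on simulated data. Genes named with values are the 8 largest called rises and falls per comparison (at least 1 CPM in a group), the member of each family with the highest mean, and a short list of central cues and receptors. From the other guidance genes, those described are among the 3 largest rises and falls per comparison. Any other gene was added after its values were seen. Strand came from the RefSeq promoter table, and 10 of the 71 genes had none. Spans of genes and start sites are those of GRCm38.p6. The members and lists were chosen with earlier results of these data known.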

Additional observations from a re-analysis of the deposited data

How the results depend on the processing

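Counts of called genes among the 69 kept within 1.5 times of those reported under other size factors, without the filter on low counts, with only the libraries compared and under DESeq2, where they were 40 higher and 17 lower (day 2 with DMSO against day 0), 43 and 13 (day 4 against day 2), 50 and 12 (day 4 against day 0), 39 and 13 (day 8 against day 4) and 34 and 20 (MS-275 against DMSO). A minimum of a 2-fold change moved 8 of the 10 counts, to 10 lower at day 2 against day 0, 26 higher and 7 lower at day 4 against day 2, 7 lower at day 4 against day 0, 19 higher and 5 lower at day 8 against day 4, and 18 higher and 8 lower with MS-275. With a −log10 q of at least 5, H3K18la with MS-275 was at 14 of 61 starts, not 24. Leaving out 1 library gave 38 to 42 higher and 15 to 16 lower at day 2, 42 to 43 and 13 to 14 for day 4 against day 2, 48 to 50 and 11 to 14 for day 4 against day 0, 36 to 39 and 13 to 16 for day 8, and 33 higher and 21 to 23 lower with MS-275. No called fold change of a named gene changed sign under these alternatives.

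Groups share replicate numbers, but nothing states that a number marks a shared culture or day, and deviations of same-numbered libraries correlated between -0.154 and 0.177, so the numbers were not taken to pair them. With the replicate block the counts were 42 higher and 17 lower, 44 and 14, 50 and 13, 39 and 14, and 35 and 24 in the same order. Crossed numbers, tried after seeing the data, for day 4 against day 2 gave 44 higher and 14 lower.

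Counts near 0, as for Unc5cl, Sema3b and Robo4 at day 2 with DMSO, limit the size of their folds, and the depth behind the peak lists is unknown.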
